A study of Homo sapiens with 17 samples.

Results

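NKX2-1, SOX2, SOX9, GATA6, HNF4A, KLF5, ELF3, GRHL2 and CEBPA encode transcription factors of the lung and of the foregut endoderm it grows from. These 9 genes, chosen by name from 19974 protein-coding genes on chromosomes 1 to 22 and X, were described by every FOXA1 and FOSL2 peak inside the gene or within 50 kb of it, and by the part of the gene covered by the repressive histone marks H3K27me3 and H3K9me3. FOXA1 is a forkhead pioneer factor, able to bind its sites in closed chromatin, and it opens regulatory regions in endoderm-derived tissues such as lung and liver. FOSL2, also called Fra2, is a partner of JUN proteins in the AP-1 complex. H3K27me3 is laid down by Polycomb complexes over silent developmental regulators, whereas H3K9me3 marks constitutive heterochromatin, repeats and zinc finger gene clusters.

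Among the 9 genes, NKX2-1 is the homeobox gene that sets lung and thyroid identity and drives surfactant genes, SOX2 marks progenitors of the conducting airway, and SOX9 marks the progenitors at the tips of the growing lung buds. GATA6 is an endodermal zinc finger factor, HNF4A is a nuclear receptor of liver, gut and pancreas, and CEBPA is a bZIP factor of liver, alveolar and myeloid cells. KLF5, ELF3 and GRHL2 encode a Krüppel-like, an ETS and a grainyhead-like factor of epithelial cells, and GRHL2 is known for holding cells in the epithelial state.

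The libraries came from A549, an established human lung carcinoma line, as WT cells or as cells into which A-Fos, a dominant-negative FOS, had been integrated with piggyBac. WT cells, given no treatment, were profiled for FOXA1, H3K27me3 and H3K9me3. A-Fos cells were profiled for FOXA1 and FOSL2 either with no treatment (uninduced) or after doxycycline at 1 µg/mL for 48 h, which switches A-Fos on. Each of these 7 groups had 2 libraries, called biological replicates in the labels, and p-values here measure only the spread between them. The series title names binding synergy between FOXA1 and AP-1, so the comparison with and without A-Fos asks how each factor's peaks stood when AP-1 was blocked. FOXA1 was profiled in WT and in A-Fos cells, FOSL2 only in A-Fos cells and the marks only in WT cells, and there is no library here of cells given doxycycline without carrying A-Fos. No source used here says whether the A-Fos line is 1 clone or a pool.

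The FOXA1 lists held 49448 and 80318 peaks in WT cells, 7633 and 13247 in uninduced A-Fos cells and 11112 and 15065 after doxycycline. The FOSL2 lists held 45586 and 14842 peaks without doxycycline and 1854 and 5274 with it, so lists of 1 group differed by up to 3-fold, and every peak number below has to be read against these lengths. The labels state the same sequencing effort for every library, but peak lists hold no read counts and the depth behind a peak is unknown. As a check of the labelled cell type in WT cells, H3K27me3 covered none of 5 epithelial marker bodies by the rule used below, 4 of them having no cover in either library, and touched a gene end of 1 of these 5 but of 8 of 9 muscle, blood and neuron markers. Of all genes 23.9% have an end touched. The body rule separated the markers less: it called 1 of 3 muscle, 0 of 3 blood and 1 of 3 neuron markers (5.04% of all genes). These were the muscle gene MYOD1, with 84.2% and 84.1% of its body covered, and the neuronal gene NEUROG1, with 72.4% and 78.3%. The bodies of the muscle gene MYOG and the blood gene PTPRC had no cover in either library.

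In WT cells H3K27me3 lay over NKX2-1 and CEBPA and over no other gene body of the 9 by the rule used here, at least 50% of the body covered in both libraries. Peaks covered 57.6% of the NKX2-1 body in library 1 and 78.1% in library 2. The CEBPA body was covered over 60.6% and 63.2%. Cover in GRHL2 was 1.16% and 1.23%, in HNF4A 0% and 1.90%, and the other 5 bodies, those of SOX2, SOX9, GATA6, KLF5 and ELF3, had none in either library. By this rule 2 of 9 bodies were called, against 5.04% of all protein-coding genes, and 5 of 9 were free of the mark in both libraries, against 63.6% of all genes. With a stricter rule of 75% of the body none of the 9 was called. NKX2-1 and CEBPA were also the only members of the 9 with a gene end (1 kb either side of it) touched in both libraries, a state shared by 23.9% of all genes.

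The mark also filled the surroundings of these genes. Over the gene and 50 kb either side, H3K27me3 covered 54.4% and 66.7% of the NKX2-1 window and 39.0% and 42.5% of the CEBPA window. SOX9 followed with 11.7% and 21.5%, with nearest peaks 1.03 kb and 0.597 kb from the gene on its lower-coordinate side. The KLF5 window had no H3K27me3 peak in either library, and the ELF3 window had 1 short peak in each. The order of the 3 highest windows was the same in both libraries, and no library of a lower gene in that order overlapped a library of a higher one.

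**Figure D1:**
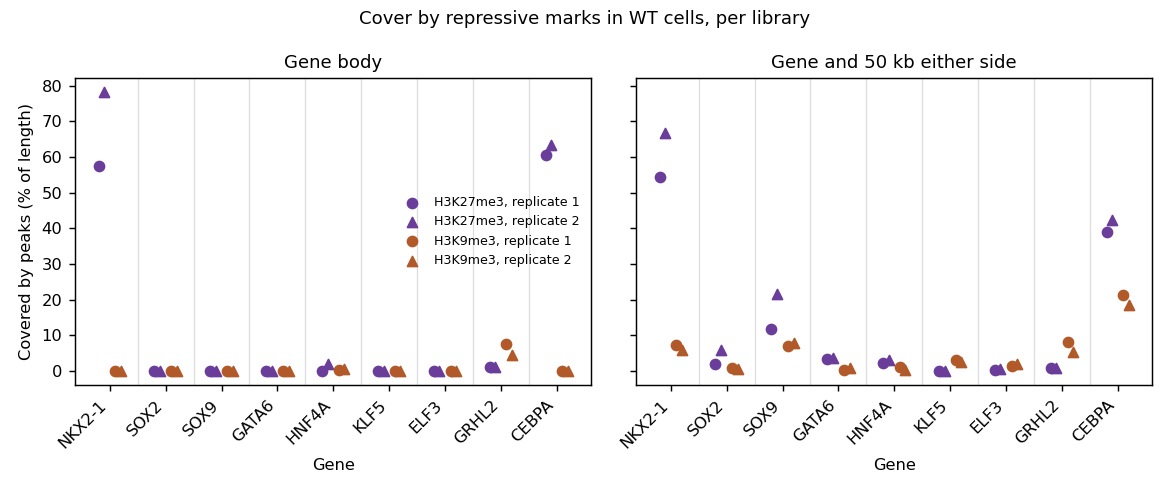
Percent of the gene body (left) and of the gene with 50 kb either side (right) covered by peaks of H3K27me3 (purple) and H3K9me3 (brown) in WT cells, with 1 symbol for each of 2 libraries. NKX2-1 and CEBPA lie between 57.6% and 78.1% for H3K27me3 on the body, while the H3K27me3 symbols of the other 7 genes lie at or below 1.90%.

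The 2 marked genes differed in the cover around their starts, though less so in library 1. At NKX2-1, which runs down the minus strand, the window around the outermost start was covered over 43.5% in library 1 and 96.8% in library 2. A peak of 10.5 kb in library 2 ran over that start and upstream of it, and library 1 had a peak of 8.68 kb beginning 0.740 kb upstream of the start, with 9.57-fold and 9.32-fold enrichment over background as the authors' peak caller gave it. At CEBPA the mark covered 100% and 86.3% of the window around the 3′ end and only 0% and 2.15% of the window around the start. The last CEBPA peak inside the gene ended 1.03 kb and 0.957 kb downstream of the start, and the next upstream began 3.16 kb and 2.39 kb beyond it. The longest H3K27me3 peaks near CEBPA, 12.7 kb and 12.8 kb, stood 38.0 kb upstream.

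H3K9me3 covered no member body by the same rule (2.19% of all genes were called) and no member end in both libraries (9.64% of all genes), though library 1 alone touched both ends of GRHL2. The highest body cover was in GRHL2, 7.50% and 4.53%, spread over many short peaks, and HNF4A had 0.402% and 0.409%. The other 7 bodies were at 0 in both libraries, as were 50.8% of all bodies. In the windows the mark was highest at CEBPA, with 21.4% and 18.4%, and reached 8.19% and 5.32% at GRHL2, 7.002% and 7.828% at SOX9 and 7.15% and 5.83% at NKX2-1. The CEBPA values lay above those of the other 8 windows in both libraries, whereas the ranges of GRHL2, SOX9 and NKX2-1 overlapped one another.

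**Figure D2:**
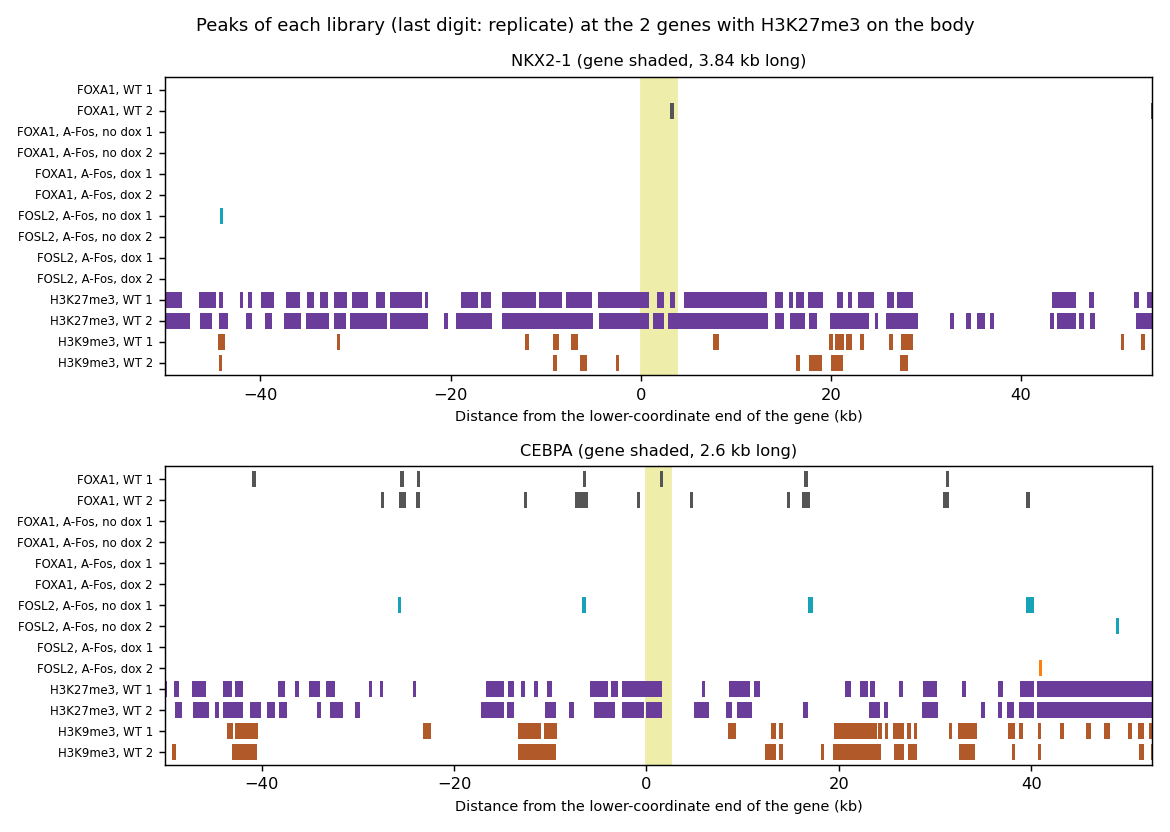
Peaks of every library around NKX2-1 and CEBPA, with distance from the lower-coordinate end of the gene in kb on the x axis, 1 line per library on the y axis and the gene shaded. H3K27me3 peaks (purple) run over both genes and most of the NKX2-1 window, and neither window holds a FOXA1 peak of the A-Fos cells.

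The promoters of these genes were compared through the 250 bases before each start, from the RefSeq promoter table (GRCh38.p14). It held 10 starts of 7 members and none of SOX9 or GRHL2. The letters TGTTTAC or TATTTAC, 2 forms of the core of a forkhead site, and TGANTCA, the AP-1 site, were searched on both strands. Other forms of a forkhead site were not searched. Either of the 2 forkhead forms stood in 4.26% of the 22132 promoters and TGANTCA in 5.35%. The median promoter held 16 CG dinucleotides, with quartiles of 5 and 25. The 6 sequences below belong to the starts that carried a motif, a FOXA1 peak in both WT libraries or, for CEBPA, the start of a marked gene with these bases free in both libraries. In the 2 with a motif the capitals mark it, and in the other 4 they mark CG dinucleotides.

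The second NKX2-1 start, inside the gene, has the upstream bases chr14:36519557-36519806 (minus strand), with TGTTTAC in capitals.
NKX2-1, second start: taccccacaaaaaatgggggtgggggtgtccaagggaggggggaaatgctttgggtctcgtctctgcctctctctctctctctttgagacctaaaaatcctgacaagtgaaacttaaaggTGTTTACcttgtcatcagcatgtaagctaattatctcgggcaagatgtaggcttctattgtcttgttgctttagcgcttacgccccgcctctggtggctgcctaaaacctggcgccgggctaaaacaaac
H3K27me3 covered all of these bases (100% in both libraries), and a FOXA1 peak of 4.10-fold enrichment lay over them in WT library 2 alone. For CEBPA the bases are chr19:33302535-33302784 (minus strand).
CEBPA: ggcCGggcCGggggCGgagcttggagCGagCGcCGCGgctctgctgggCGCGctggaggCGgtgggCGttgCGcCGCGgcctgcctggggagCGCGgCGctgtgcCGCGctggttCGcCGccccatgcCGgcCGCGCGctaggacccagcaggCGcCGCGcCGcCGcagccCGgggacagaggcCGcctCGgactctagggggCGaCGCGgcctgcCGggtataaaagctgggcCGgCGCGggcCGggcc
They held 41 CG dinucleotides, more than 97.8% of promoters, and no peak of any mark or factor in any library. The bases before the GATA6 start are chr18:22169339-22169588 (plus strand).
GATA6: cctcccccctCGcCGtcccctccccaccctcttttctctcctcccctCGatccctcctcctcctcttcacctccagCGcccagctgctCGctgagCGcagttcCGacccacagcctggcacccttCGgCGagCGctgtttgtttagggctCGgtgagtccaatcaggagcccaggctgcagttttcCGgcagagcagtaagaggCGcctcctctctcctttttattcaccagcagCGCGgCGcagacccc
The bases before the first HNF4A start, which is used in pancreas, are chr20:44355449-44355698 (plus strand).
HNF4A, first start: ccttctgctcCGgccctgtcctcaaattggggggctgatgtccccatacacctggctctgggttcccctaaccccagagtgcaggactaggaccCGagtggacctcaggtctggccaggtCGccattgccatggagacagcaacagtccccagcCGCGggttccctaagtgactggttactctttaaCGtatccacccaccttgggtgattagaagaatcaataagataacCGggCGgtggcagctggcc
Those before the second HNF4A start, the one used in liver, are chr20:44400989-44401238 (plus strand), with an AP-1 site in capitals.
HNF4A, second start: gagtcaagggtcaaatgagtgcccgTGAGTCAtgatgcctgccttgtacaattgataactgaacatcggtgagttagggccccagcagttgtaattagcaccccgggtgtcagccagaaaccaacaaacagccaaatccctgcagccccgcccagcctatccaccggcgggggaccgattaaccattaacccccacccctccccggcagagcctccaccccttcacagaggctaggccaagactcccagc
Those before the second KLF5 start are chr13:73058755-73059004 (plus strand).
KLF5, second start: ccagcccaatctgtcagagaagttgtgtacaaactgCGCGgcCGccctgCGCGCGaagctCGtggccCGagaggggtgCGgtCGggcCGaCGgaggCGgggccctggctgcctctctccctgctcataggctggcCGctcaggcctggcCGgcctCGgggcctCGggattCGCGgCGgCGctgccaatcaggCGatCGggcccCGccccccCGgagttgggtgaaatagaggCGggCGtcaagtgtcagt
FOXA1 peaks of both WT libraries overlapped the GATA6, first HNF4A and second KLF5 sequences, which hold 16, 8 and 27 CG dinucleotides and neither form of the forkhead core. The second HNF4A sequence, with its TGAGTCA, was overlapped by no peak, the nearest FOSL2 region being 2.45 kb and the nearest FOXA1 region of both WT libraries 2.49 kb from that start. The letters searched and the peaks were therefore found at different starts here, except at NKX2-1, where TGTTTAC and a WT FOXA1 peak of 1 library met. Forkhead sites of other letters, such as the tgtttgt in the GATA6 sequence, were not counted, so a lack of forkhead sites under these peaks is not shown.

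FOXA1 in WT cells had peaks near all 9 genes in library 2 and near 8 in library 1. GRHL2 had 18 and 28 peaks in its window, SOX9 6 and 18, ELF3 8 and 16, KLF5 8 and 13, HNF4A 8 and 10, and CEBPA 7 and 11. SOX2 had 2 and 6, GATA6 1 and 3, and NKX2-1 0 and 2. Library 2, with the longer list, was higher at every gene. GRHL2 had the most peaks in each library, its lower value equal to the higher value of SOX9, and in the middle of the order SOX9, ELF3, KLF5, HNF4A and CEBPA overlapped. Windows are not of equal length, since GRHL2 is 189 kb long and HNF4A 78.9 kb against 2.60 kb for CEBPA.

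Merging the peaks gave 111 regions, of which 52 were called in both WT libraries. They stood near 8 of the 9 genes, while 71.6% of all genes had such a region. GRHL2 had 15, HNF4A, KLF5 and ELF3 had 8 each, SOX9 and CEBPA 5 each, SOX2 2 and GATA6 1, and NKX2-1 had none. Of the 52 regions 18 lay inside a gene: 9 in GRHL2, 4 in HNF4A, 4 in KLF5 and the 1 of GATA6.

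Each peak was ranked within its own list by fold enrichment, as a percent of the list's length, with tied folds given their mean rank. A region took the highest rank of its peaks in a list, and its 2 ranks were averaged. The highest ranks belonged to GRHL2 and ELF3. A region inside GRHL2, chr8:101607082-101608793, had 79.9-fold and 174-fold enrichment and a mean percentile of 99.7, and one 24.3 kb beyond its lower-coordinate end, chr8:101466788-101468144, had 60.6-fold and 173-fold (99.5). At ELF3 a region 0.479 kb downstream of the gene, chr1:202017663-202019431, had 38.5-fold and 91.6-fold (98.3). All 8 ELF3 regions lay at the 74.1 percentile or above. The one nearest the ELF3 start, chr1:202005923-202006351, 4.24 kb upstream of it, had 8.75-fold and 8.43-fold (74.1).

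At the other genes the highest region was weaker, and at KLF5 and GATA6 it sat on a start. The KLF5 region chr13:73058418-73059072, over the second start, had 22.97-fold and 45.58-fold enrichment (mean percentile 95.1). The GATA6 region chr18:22169194-22169697 lay over the start with 13.4-fold and 28.5-fold (89.9). HNF4A had a region over its first start, chr20:44355547-44355911, with 6.41-fold and 10.9-fold (71.0), but its highest was inside the gene, chr20:44370009-44371291, with 19.5-fold and 54.0-fold (94.7). The highest SOX2 region, chr3:181709592-181710191, lay 1.73 kb upstream of the gene with 11.8-fold and 22.6-fold (87.4). The highest SOX9 region, chr17:72151210-72152847, stood 24.8 kb beyond the upper-coordinate end with 9.77-fold and 33.5-fold (86.9), and the highest of CEBPA, chr19:33274174-33274895, 25.04 kb downstream with 13.9-fold and 23.7-fold (89.4).

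None of the 52 regions overlapped H3K27me3 or H3K9me3 covered in both libraries, although CEBPA lies in H3K27me3. NKX2-1, which also lies in it, had none of the 52. When either H3K27me3 library was left out, 1 of 52 overlapped that mark. With 52 regions, 0 allows a share of up to 6.85% (upper bound of the exact 95% Clopper-Pearson interval), and over all 35739 regions the shares were 3.23% and 1.95%, inside that limit. The 5 CEBPA regions stood in gaps of H3K27me3 as covered in both libraries. The 2 NKX2-1 peaks of library 2 were of 4.10-fold and 4.31-fold enrichment, at the 33.1 and 36.0 percentiles, and the first of them, chr14:36519474-36519890, lay inside the mark.

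**Figure D3:**
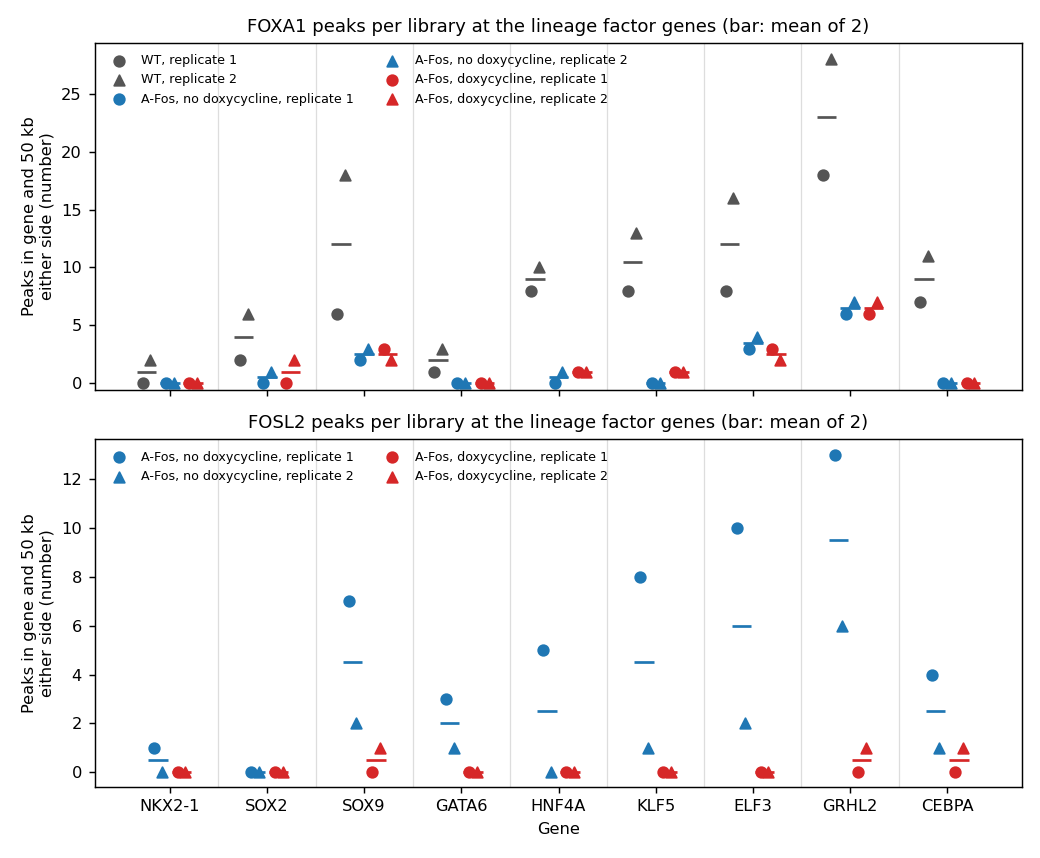
Number of FOXA1 peaks (top) and FOSL2 peaks (bottom) in the window of each gene, with 1 symbol per library and a bar for the mean of 2. The WT FOXA1 symbols lie above those of the uninduced A-Fos cells at 8 genes, all but NKX2-1, and FOSL2 symbols with doxycycline lie at 0 or 1.

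In uninduced A-Fos cells the FOXA1 lists held fewer peaks near these genes than in WT cells. The WT and A-Fos lists also differ in format, which cannot be told apart from the difference in line. GRHL2 had the most, with 6 and 7, followed by ELF3 with 3 and 4 and SOX9 with 2 and 3. HNF4A and SOX2 had 0 and 1, and NKX2-1, GATA6, KLF5 and CEBPA had 0 in both libraries. In 8 of the 9 windows both A-Fos libraries lay below both WT libraries (permutation p = 0.333, the smallest that 2 against 2 allow, adjusted p = 0.474 over all genes), against 70.3% of all genes, and none lay above. No gene of the 19974 passed an adjusted p of 0.05 in this exact two-sided permutation test. The total over the 9 windows was 58 and 107 peaks in WT cells and 11 and 16 in uninduced A-Fos cells. The ratio of means was 0.164 ± 0.0810 (SD, n = 2 libraries a group). Per 10000 peaks of the list, however, the total was 11.7 and 13.3 against 14.4 and 12.1, which overlap, with a ratio of 1.06. With all lists trimmed to the shortest by fold, the mean was 15.5 peaks in WT and 10 in uninduced A-Fos cells, a ratio of 0.645. These settings differed, and the part of list length was not tested. In the trimmed lists SOX2 and SOX9, lower in A-Fos cells as counted, were higher by 0.5 peaks. NKX2-1 and GRHL2 did not differ there, and GATA6, HNF4A, KLF5, ELF3 and CEBPA remained lower in A-Fos cells.

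The WT regions that were also called in uninduced A-Fos cells were those of high rank. Of the 52, 8 overlapped a peak in both uninduced libraries, 10 in 1 and 34 in neither (15.4%, 19.2% and 65.4%). Across the genome the shares were 16.6%, 18.2% and 65.2%. The median mean percentile in WT cells was 97.1 for the 8, 84.0 for the 10 and 62.3 for the 34, and genome-wide it was 94.1, 80.9 and 56.7. The 8 were 4 of GRHL2, 3 of ELF3 and 1 of SOX9. Rank did not sort all regions: the KLF5 region over the second start, at 95.1, was in neither uninduced list, nor was the region over the GATA6 start at 89.9, while a GRHL2 region at 35.2 was in 1.

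**Figure D4:**
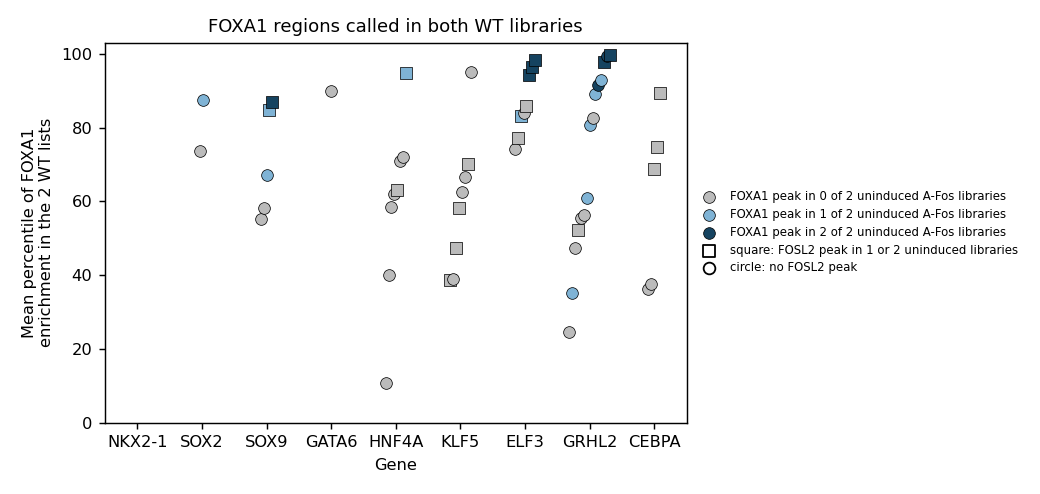
Mean percentile of FOXA1 fold enrichment in the 2 WT lists (y axis) for each of the 52 regions called in both, by gene (x axis), with colour for the number of uninduced A-Fos libraries that also had a FOXA1 peak and squares for an overlap with a FOSL2 peak. The dark symbols, called in both uninduced libraries, are 8 regions of SOX9, ELF3 and GRHL2 between 86.9 and 99.7.

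No difference in FOXA1 peak number with and without A-Fos induction held up at these genes. SOX9 had 2 and 3 FOXA1 peaks without doxycycline and 3 and 2 with it, GRHL2 6 and 7 in both conditions, and ELF3 3 and 4 against 3 and 2. SOX2 had 0 and 1 against 0 and 2, HNF4A 0 and 1 against 1 and 1, and NKX2-1, GATA6 and CEBPA 0 in all 4 libraries. KLF5 alone had groups that did not overlap, 0 and 0 against 1 and 1 (difference 1 peak, permutation p = 0.333, adjusted p = 1), and these 2 peaks were at different places. Over all genes 6.76% were higher without overlap and 4.45% lower, and none passed an adjusted p of 0.05. The totals over the windows were 11 and 16 peaks without and 14 and 15 with doxycycline, which overlap, with a ratio of 1.07 ± 0.286 (SD, n = 2 libraries a group). This ratio turned below 1 per 10000 peaks of the list (0.852), with lists of equal length (0.550), and without the shorter uninduced library (0.906).

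The merged FOXA1 peaks of the 4 A-Fos lists formed 28 regions near 6 of the genes. By the calls, 5 were kept (called in all 4 libraries), 1 was lost (in both without doxycycline and neither with it), 1 was gained (the opposite) and 21 fell in none of these classes. Kept regions were near 2 of 9 genes (14.6% of all genes have one), a lost region near 1 (8.97%) and a gained region near 1 (6.92%). A region called in both uninduced libraries, whatever followed, was near 3 genes, SOX9, ELF3 and GRHL2 (22.6%). Of the 28 regions 17.9% were kept, 3.57% lost and 3.57% gained, and of all 27825 regions 11.5%, 6.73% and 4.60%. With so few regions a single one moves these shares by several percentage points.

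GRHL2 held 4 of the 5 kept regions. The one inside the gene, chr8:101607172-101608543, had 27.5-fold and 54.8-fold enrichment in the uninduced lists and 8.98-fold and 16.4-fold in the doxycycline lists, and the region 24.4 kb from the lower-coordinate end, chr8:101466794-101468027, had 13.9-fold and 32.8-fold against 19.0-fold and 46.3-fold. The within-list percentiles of the first were 98.5 and 99.3 without and 86.1 and 94.2 with doxycycline, and those of the second 90.2 and 97.2 against 97.0 and 99.4. The region inside the gene thus stood above the flanking one in each uninduced list, as in each WT list, and below it in each doxycycline list. In WT library 2 the margin was small, 174-fold against 173-fold. The order of these regions was noticed in the values and was not tested. The third, 40.5 kb away, chr8:101450986-101451927, had 9.95-fold and 17.4-fold against 5.81-fold and 6.15-fold, and the fourth, chr8:101446241-101446595, 4.72-fold and 7.85-fold against 3.15-fold and 4.40-fold. The kept ELF3 region, chr1:202018699-202019030, 1.51 kb downstream of the gene, had 3.65-fold and 4.65-fold against 3.54-fold and 3.51-fold.

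In 4 of the 5 kept regions both doxycycline folds lay below both uninduced folds, as in 22.7% of all 3205 kept regions, and 21.4% of those lay above. The median fold of a whole list was 5.74 and 6.34 without and 4.48 and 4.75 with doxycycline, and the lists differ in length, so the fold order is a description of the lists and no measured change of binding.

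The lost region, chr1:202047033-202047342, lay 29.8 kb downstream of ELF3 with 4.29-fold and 4.22-fold enrichment, the 25.1 and 17.9 percentiles of its lists. The gained region, chr17:72074825-72075703, lay 45.3 kb from SOX9 on the lower-coordinate side with 3.36-fold and 3.56-fold (19.7 and 27.2), inside H3K27me3 of the WT cells and away from any FOXA1 region of both WT libraries. Both thus ranked low in their lists. The gained call ended with the upper 50% of each list, with lists of equal length and with peaks taken as 100 bp either side of the summit. The lost ELF3 region, at these percentiles, is outside the upper 50% of both its lists. The 1 region counted as lost with that setting is thus another. With lists of equal length the 1 region counted as lost is also another, since the ELF3 peak of uninduced library 2, at the 17.9 percentile, is trimmed away. Leaving out a library moved both counts: lost regions numbered 5 and 3 without uninduced library 1 or 2 and 3 without doxycycline library 1, and gained regions 3 without uninduced library 2 and 6 and 4 without doxycycline library 1 or 2.

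The following regions fell in none of these classes but had calls in both conditions. The SOX9 region chr17:72151414-72152170, 24.997 kb from the gene, had 5.01-fold and 5.01-fold without and 3.20-fold with doxycycline in library 1 alone. A second ELF3 region, chr1:202063134-202063551, had 6.26-fold and 11.9-fold without and 3.82-fold in library 1 with doxycycline. In HNF4A the region chr20:44370609-44370931 inside the gene was called in 1 library of each condition, at 5.35-fold and 3.32-fold. Near SOX2, the region chr3:181709675-181709965, 1.96 kb upstream, was called in library 2 of each condition, at 6.21-fold and 4.82-fold. Another ELF3 region, chr1:202035116-202035448, had 3.79-fold in uninduced library 2 and 3.08-fold and 4.36-fold with doxycycline. Inside GRHL2, chr8:101543453-101543916 had 4.76-fold in uninduced library 2 and 2.93-fold and 4.15-fold with doxycycline. Also in GRHL2, chr8:101583254-101583922 had 3.46-fold in uninduced library 1 and 3.73-fold in doxycycline library 2.

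**Figure D5:**
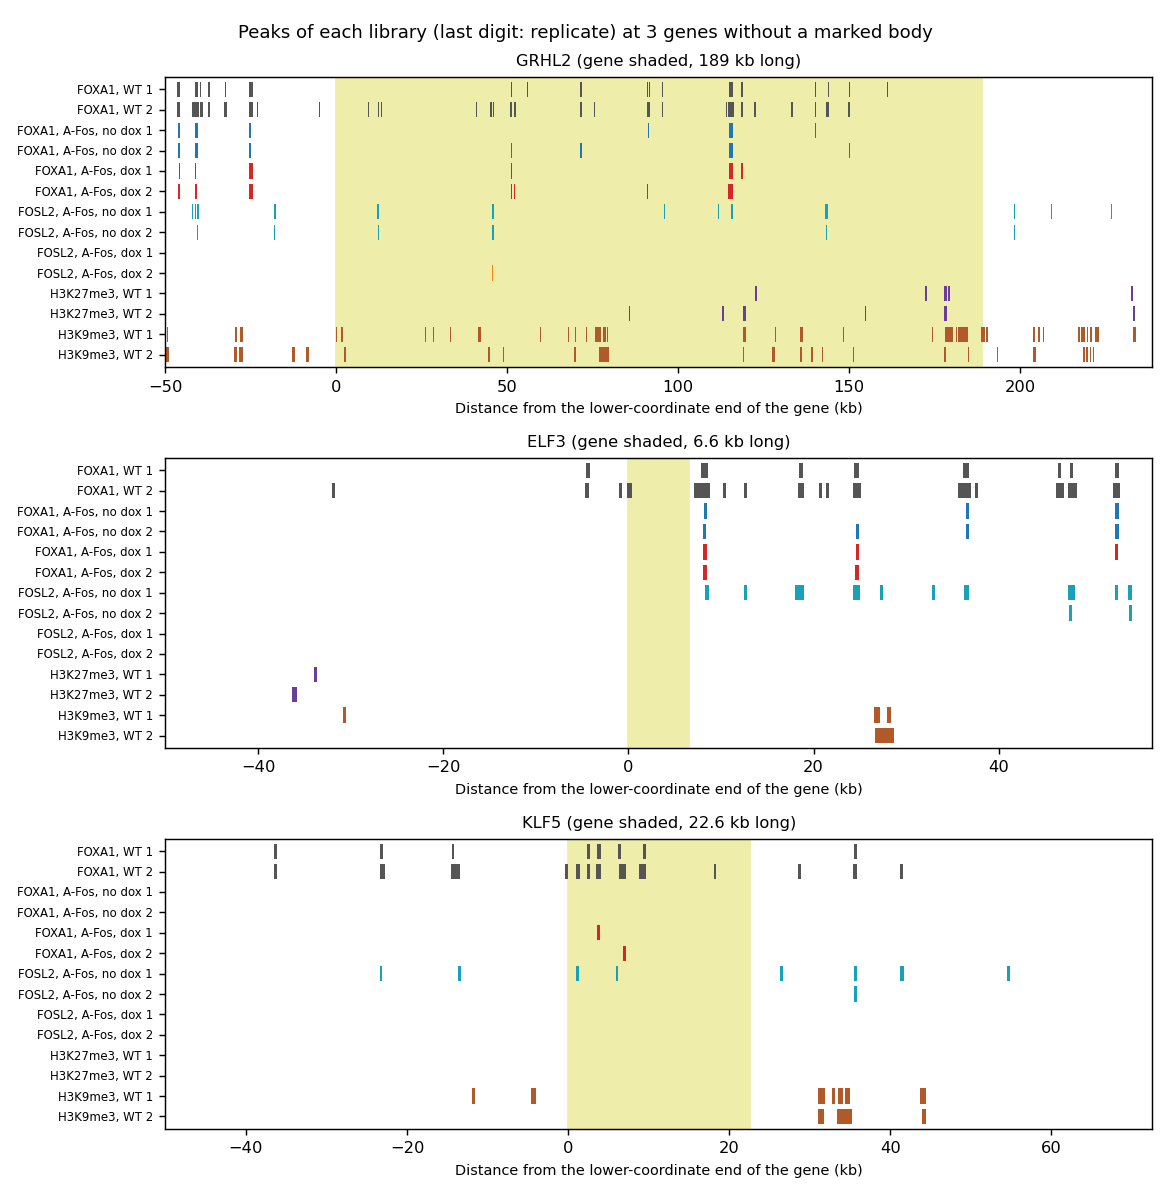
Peaks of every library around GRHL2, ELF3 and KLF5, with distance from the lower-coordinate end of the gene in kb on the x axis, 1 line per library on the y axis and the gene shaded. FOXA1 peaks of all 4 A-Fos libraries line up at 4 places of GRHL2 and 1 of ELF3, and with doxycycline the FOSL2 lines hold 1 peak, in GRHL2.

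FOSL2 peaks were nearly absent from these windows when A-Fos was induced. GRHL2 had 13 and 6 FOSL2 peaks without doxycycline and 0 and 1 with it, ELF3 10 and 2 against 0 and 0, KLF5 8 and 1 against 0 and 0, SOX9 7 and 2 against 0 and 1, and GATA6 3 and 1 against 0 and 0. In these 5 genes both doxycycline libraries lay below both uninduced libraries (permutation p = 0.333, adjusted p = 0.895), against 37.1% of all genes, and none of the 9 lay above (0.11% of all genes). CEBPA had 4 and 1 against 0 and 1, HNF4A 5 and 0 against 0 and 0, NKX2-1 1 and 0 against 0 and 0, and SOX2 had none in any library, its nearest FOSL2 region being 70.3 kb from the start. No gene of the 19974 passed an adjusted p of 0.05. The totals were 51 and 13 peaks without and 0 and 3 with doxycycline, which do not overlap. Their ratio was 0.0469 ± 0.0771 (SD, n = 2 libraries a group), an SD larger than the ratio itself. Per 10000 peaks of the list the totals were 11.2 and 8.76 against 0 and 5.69, which do not overlap either, with a ratio of 0.285. With all 4 lists trimmed to the shortest by fold the mean was 5 peaks without and 0.5 with doxycycline, a ratio of 0.1. The ratio of the totals rests on 3 peaks and ran from 0 to 0.115 when each library was left out in turn.

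Of 54 FOSL2 regions near 8 genes, 10 were lost, none was kept or gained, and 44 fell in none of these classes, most of them called in uninduced library 1 alone. A region called in both uninduced libraries was near 5 of 9 genes, against 38.9% of all genes, and one called in both doxycycline libraries near none, against 0.255%. Lost regions were near the same 5 genes, against 38.6% of all genes, and over all 56430 regions 17.8% were lost, against 18.5% at these genes. A kept region is near 0.0401% of all genes and a gained one near 0.115%. GRHL2 had 5 lost regions, ELF3 2, and SOX9, GATA6 and KLF5 1 each. Without uninduced library 2, which has the shorter list, 50 of the regions counted as lost. Nearest the first KLF5 start, 0.984 kb from it, chr13:73055960-73056385 had 7.56-fold enrichment in uninduced library 1 alone. Nearest the second HNF4A start, 2.45 kb from it, chr20:44398448-44398786 had 3.85-fold in that library alone.

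Of the 10 lost regions 7 had a mean percentile of 69.0 or more. That of KLF5, chr13:73090423-73090906, 12.9 kb downstream of the gene, had 47.3-fold and 12.6-fold enrichment in the 2 uninduced libraries and a mean percentile of 96.8. A GRHL2 region inside the gene, chr8:101504358-101505062, had 42.7-fold and 10.9-fold (95.1), and another, chr8:101635413-101636343, 40.0-fold and 9.55-fold (93.2). The SOX9 region chr17:72151205-72152045, 24.8 kb from the gene, had 35.6-fold and 9.38-fold (92.5). The ELF3 regions, 47.4 kb and 40.9 kb downstream, had 21.3-fold and 6.05-fold (79.6) and 18.6-fold and 4.52-fold (69.0), and the GATA6 region, chr18:22223590-22224169, 21.1 kb downstream, 18.4-fold and 4.91-fold (71.8). The remaining 3 of GRHL2 had mean percentiles from 11.6 to 52.4. Library 1 gave the higher fold at all 10.

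Peaks that were called with doxycycline were few, of 4.01-fold enrichment or less, and all in library 2. The GRHL2 region chr8:101538056-101538651, inside the gene, had 37.6-fold and 13.9-fold in the uninduced lists, 2.84-fold in the doxycycline list of library 2, and ranked at 96.7 among uninduced regions and at 9.27 in the doxycycline list. Near SOX9 the region chr17:72079561-72079881 had 3.30-fold in uninduced library 2 and 4.01-fold with doxycycline, the 77.5 percentile of the doxycycline list, and near CEBPA chr19:33340741-33341062 had 3.25-fold with doxycycline alone. Both of the latter lay in H3K27me3 and in H3K9me3 of the WT cells. The highest fold anywhere in the doxycycline lists was 6.57 and 6.77.

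FOXA1 and FOSL2 shared some of these places. Of the 8 FOXA1 regions called in both uninduced libraries, 2 shared bases with a FOSL2 region that was likewise called in both (25%, Clopper-Pearson interval from 3.19% to 65.1%): the SOX9 region 24.997 kb from the gene and the GRHL2 region 40.5 kb from it. Over all 6012 such FOXA1 regions the share was 28.3%, inside that interval. With FOSL2 in either library the count was 6 of 8 (75%, 34.9% to 96.8%) against 59.2%. Without uninduced FOSL2 library 2 the share was 75%, and without uninduced FOXA1 library 1 it was 12.5%. The overlapping GRHL2 region was among the kept, and the SOX9 region was called in 1 doxycycline library. The strongest GRHL2 region outside the gene, 24.4 kb away, overlapped no FOSL2 peak, while the one inside the gene overlapped a FOSL2 peak of uninduced library 1, of 3.81-fold. The lost ELF3 region also overlapped a FOSL2 peak of that library, of 7.06-fold.

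Seen from FOSL2, 2 of 11 regions called in both uninduced libraries (18.2%) overlapped FOXA1 of both uninduced libraries, and 5 of 11 (45.5%, 16.7% to 76.6%) FOXA1 of both WT libraries, against 16.6% and 47.3% genome-wide. On the WT map, 20 of 52 FOXA1 regions (38.5%, 25.3% to 53.0%) met a FOSL2 peak of any uninduced library, against 33.5% of all. By gene the counts were 6 of 8 at ELF3, 4 of 8 at KLF5, 3 of 5 at CEBPA, 2 of 5 at SOX9, 2 of 8 at HNF4A and 3 of 15 at GRHL2, and none at SOX2 and GATA6. With FOSL2 in both libraries it was 5 of 52 (9.62%) against 13.5%. Regions of a gene share their window, so no test was made between genes, and intervals cover counting error alone.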

How the data were processed

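Of the 17 samples, 14 have a deposited ChIP-seq peak list of their own, without pooling of replicates, and these were used. The 3 inputs were not analysed here. The submitters' processing notes name MACS2, BWA 2.2.1, SAMtools 1.8, fastp 0.23.2, DRAGEN and deepTools, and build hg38, and the way they were combined is not stated there. The deposited columns give, from the authors' peak caller, fold enrichment over background as a linear ratio, a display score, the −log10 p-value and q-value, and for narrow peaks the summit offset. Folds are the authors' own and served only to describe and rank peaks within a list.

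Genes came from a RefSeq table of GRCh38.p14 and were matched by symbol. Peaks overlapping by at least 1 bp were merged over the 4 A-Fos lists of a factor, or over the 2 WT lists. Peak numbers per window were compared with an exact two-sided permutation test per gene, adjusted by Benjamini-Hochberg over all 19974 genes. No test was made over regions or over the list of genes. Intervals of shares are exact Clopper-Pearson intervals at 95% and include counting error only. The scripts were tested on simulated intervals. Python 3.11.15, numpy 2.4.6, pandas 2.3.3, scipy 1.17.1 and matplotlib 3.10.9 were used.

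The regions given with positions were, per gene, the highest-ranked FOXA1 and FOSL2 region of both uninduced libraries, every lost or gained FOXA1 region, the region nearest the start within 5 kb, and the highest WT region; others were named after their values were seen. The 9 genes, the lists of other genes and the tests were chosen with earlier results of these data known. Alternatives were windows of 10 kb and 100 kb, the upper 50% of each list, lists of equal length, summits, other cover rules and each library left out.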

Additional observations from a re-analysis of the deposited data

How the results depend on the processing

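Peak lists without read counts, 2 libraries a group and lists of unequal length set the limits here: permutation p cannot fall below 0.333, and counts of a few regions move with any choice. In 10 kb windows 0 FOXA1 regions were lost, 2 kept and 0 gained, 3 FOSL2 regions were lost and 0% of FOXA1 regions (of 2) met FOSL2 in both libraries; in 100 kb windows 8 FOXA1 regions were kept and 16 FOSL2 regions lost. With the upper 50% of each list 3 FOXA1 regions were kept and 0 gained, the FOSL2 overlap was 0% (of 4) and the FOXA1 doxycycline ratio 0.900. With lists of equal length 3 FOXA1 regions were kept, 0 gained, 5 FOSL2 regions lost, the FOXA1 ratio was 0.550 and the A-Fos to WT ratio 0.645, with SOX2 and SOX9 each at 0.5 peaks higher in A-Fos cells. Summits gave 0 gained FOXA1 regions. Per 10000 list peaks the ratios were 0.852 (FOXA1), 0.285 (FOSL2) and 1.06 (A-Fos to WT). Leaving out each library gave 1 to 5 lost, 5 to 7 kept and 1 to 6 gained FOXA1 regions, 10 to 50 lost, 0 to 1 kept and 0 to 1 gained FOSL2 regions, FOXA1 ratios from 0.906 to 1.32, and a FOSL2 overlap of 12.5% to 75% of FOXA1 regions, and a SOX2 FOXA1 difference with doxycycline from -0.5 peaks (without doxycycline library 2) to 1.5. A body rule of 75% left 0 genes with H3K27me3, ends of 5 kb gave 4 with H3K27me3 and 1 with H3K9me3, and without H3K9me3 library 2 there was 1 such end. The cause of these shifts was not tested, beyond fewer peaks or libraries entering.

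With the replicate block (ratios within replicate number, averaged), the FOXA1 ratio was 1.11, the FOSL2 ratio 0.115 and the A-Fos to WT ratio 0.170. With 2 pairs the numbers need not pair the samples (correlation of the differences between numbers 0.114 for FOXA1 and 0.150 for FOSL2). The other main values stayed within the spread between libraries for ratios, within the Clopper-Pearson interval for shares, or within 1.5 times for counts. That interval covers counting error only and is wide, from 3.19% to 65.1% for the FOSL2 overlap of 2 of 8 regions. Single-gene differences of 0 or 0.5 peaks were unstable: the SOX9 FOXA1 difference with doxycycline, 0, was 2 with 100 kb, -1 with 10 kb and -1.5 with lists of equal length, that of GRHL2, 0, was -2.5 with lists of equal length, and that of SOX2, 0.5, was 0 with 10 kb and 100 kb.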

Other observations

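A wider list of 21 lineage factor genes of lung, gut and epithelium, from FOXA1 itself to KLF4, was read in the same way. H3K27me3 covered the body of 1 of them, GATA4 (57.1% and 70.0%; 5.04% of all genes are called), and touched an end of 10 in both libraries, where 23.9% of all genes are touched. OVOL1, an epithelial zinc finger factor, had 63.6% and 49.6% and missed the rule in library 2. No body was called for H3K9me3 (2.19% of all genes). FOXA1 regions of both WT libraries stood near 20 of the 21, all but OVOL1, against 71.6% of all genes. CDX2 and PDX1 had 1 each, with the same mean percentile of 97.4, so these may be the same region. In the A-Fos cells FOXA1 regions were kept near 8 (against 14.6% of all genes), lost near 2, FOXA2 and EHF (8.97%), and gained near 1, SOX17 (6.92%). FOSL2 regions were lost near 11 (38.6%), with none kept or gained. The highest FOXA1 regions of the uninduced cells were those of KLF4 (mean percentile 99.1), FOXA1 (97.3), EHF (92.5) and CEBPB (66.8).

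Neighbouring genes inside the windows were the 3 genes FITM2, R3HDML and TTPAL at HNF4A, PIBF1 at KLF5, TIMM17A and RNPEP at ELF3 and NCALD at GRHL2. NCALD, with 4.16% and 5.49% of its body under H3K27me3 and 10.8% and 7.52% under H3K9me3, and PIBF1, with 2.47% and 4.49% under H3K9me3, were the 2 of these 7 with any cover.

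The protein-coding gene with the most similar pattern over the 14 lists (Euclidean distance over log2 of peaks per window plus 1 and over the covered fraction of the body) was RASGRP2 for NKX2-1 (0.0852), GON4L for HNF4A (0.219), BTRC for KLF5 (0.414), MATCAP2 for SOX9 (0.484), C6orf58 for SOX2 (0.490), NR1H4 for ELF3 (0.492), FAM107B for GRHL2 (0.515) and ITGAE for CEBPA (0.816). For GATA6, with few peaks, 13 genes were tied at a distance of 0. CEBPA thus had the most distant nearest gene of the 9.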
